A study of Homo sapiens with 12 samples.

Results

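TRIM4 and 6 genes beside it in band 7q22 of chromosome 7 (GJC3, AZGP1, ZKSCAN1, ZSCAN21, ZNF3 and COPS6) were followed by RNA sequencing in human stem cells with and without the catalytic domain of TET1. They were taken as the rows with these 7 symbols out of 36762 symbols in the deposited count tables. TRIM4 was chosen by its difference between genotypes in iMeLC, so its values in those libraries are given as a description without a test. The 6 neighbours were named by position, with results of these data known. All cells were of UCLA1, a human embryonic stem cell (hESC) line. Control (CTRL) lines and lines with a TET1 catalytic domain knockout (CDKO) were each profiled as hESC and as iMeLC, giving 4 groups of 3 libraries. iMeLC, incipient mesoderm-like cells, are the short intermediate made from hESC on the way to primordial germ cell-like cells. CTRL was represented by the lines CTRL1101, CTRL1106 and CTRL1109, and CDKO by CDKO1102, CDKO1105 and CDKO1312. The deposited hESC columns do not name the line, so the hESC libraries are numbered within their group.

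TET1 is a dioxygenase that oxidises 5-methylcytosine in DNA, a step towards demethylation, and the catalytic domain carries this activity. TRIM4 is a RING-type E3 ubiquitin ligase of the tripartite motif (TRIM) family, known for ubiquitinating the RNA sensor RIG-I in the antiviral response. GJC3 encodes a connexin of gap junctions and AZGP1 a secreted zinc-binding glycoprotein made in epithelia and liver. ZKSCAN1, ZSCAN21 and ZNF3 encode zinc finger proteins, and COPS6 a subunit of the COP9 signalosome, which removes NEDD8 from cullins.

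In the GENCODE 29 annotation of GRCh38, TRIM4 (ENSG00000146833) lies on the minus strand at chr7:99876958-99919600. GJC3 (ENSG00000176402, minus, chr7:99923269-99929620) begins 3.7 kb beyond it, and AZGP1 (ENSG00000160862, minus, chr7:99966720-99976157) 47.1 kb beyond it. ZKSCAN1 (ENSG00000106261, plus, chr7:100015572-100041689) and ZSCAN21 (ENSG00000166529, plus, chr7:100049774-100065038) follow at 96.0 and 130.2 kb. ZNF3 (ENSG00000166526, minus, chr7:100064033-100082548) and COPS6 (ENSG00000168090, plus, chr7:100088954-100092200) lie 144.4 and 169.4 kb away. Exons of TRIM4 share 94 bases with the olfactory receptor gene OR2AE1 on the same strand. Exons of ZSCAN21 and ZNF3 share 880 bases on opposite strands, and those of GJC3 share 229 bases with AC004522.2 on the opposite strand. No source used here gives the strand setting of the counting, so reads in these shared stretches cannot be assigned.

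RefSeq promoter sequences (GRCh38.p14) were matched for 6 of the 7 members, all but TRIM4. The 250 bases before the annotated start are shown for the 2 neighbours with the lowest RNA levels, GJC3 (chr7:99929621-99929870, minus strand) and AZGP1 (chr7:99976032-99976281, minus strand), and for 2 with high levels, ZKSCAN1 (chr7:100015346-100015595, plus strand) and COPS6 (chr7:100088719-100088968, plus strand). They are written 5′ to 3′ on the gene's strand, and capitals mark CpG dinucleotides, the sites of most DNA methylation in human cells.
GJC3: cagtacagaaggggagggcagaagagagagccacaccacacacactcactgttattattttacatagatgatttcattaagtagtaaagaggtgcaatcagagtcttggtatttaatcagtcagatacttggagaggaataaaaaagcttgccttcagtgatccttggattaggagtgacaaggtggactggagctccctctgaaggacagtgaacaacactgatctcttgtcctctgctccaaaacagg
AZGP1: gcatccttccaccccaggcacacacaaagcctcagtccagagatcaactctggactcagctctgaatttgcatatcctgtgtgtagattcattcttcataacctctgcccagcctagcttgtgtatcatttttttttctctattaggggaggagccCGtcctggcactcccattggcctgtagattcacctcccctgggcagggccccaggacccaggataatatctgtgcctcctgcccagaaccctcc
ZKSCAN1: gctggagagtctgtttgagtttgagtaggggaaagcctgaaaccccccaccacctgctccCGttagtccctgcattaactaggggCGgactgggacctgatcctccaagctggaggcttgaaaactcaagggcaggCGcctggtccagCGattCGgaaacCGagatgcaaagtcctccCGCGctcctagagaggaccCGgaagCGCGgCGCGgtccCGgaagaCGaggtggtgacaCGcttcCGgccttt
COPS6: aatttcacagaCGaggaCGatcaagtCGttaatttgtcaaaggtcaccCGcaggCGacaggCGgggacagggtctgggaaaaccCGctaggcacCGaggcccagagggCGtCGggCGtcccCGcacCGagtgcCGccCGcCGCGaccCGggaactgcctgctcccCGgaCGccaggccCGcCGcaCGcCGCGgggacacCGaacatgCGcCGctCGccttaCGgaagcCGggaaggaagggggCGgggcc
The GJC3 window held 0 CpG and the AZGP1 window 1, against a median of 11 over 35116 RefSeq windows of this length. Of all windows, 6.1% held 0 CpG and 14.7% held 1 or fewer. The ZKSCAN1 window held 17 CpG and the COPS6 window 32, a number that 91.9% of windows did not exceed. ZSCAN21 had 15 CpG, and the 2 entries of ZNF3 had 25 and 21. The GC box letters GGGCGG, searched on both strands and overlapping a CpG wherever they occur, were present in the windows of ZKSCAN1, ZSCAN21, ZNF3 and COPS6 and were not found in those of GJC3 and AZGP1; they occurred in 42.6% of all windows.

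Library totals were 12517593 to 18855099 counts in hESC and 52121702 to 109479071 in iMeLC, so a gene of low level was counted more precisely in iMeLC. The 2 stages were deposited in separate tables, and stage, table and depth cannot be told apart. Levels are given as CPM, which are counts relative to library totals scaled together over the 12 libraries, and fold changes come from the model fits. Whole-gene TET1 levels were 290 to 339 CPM in CTRL hESC and 335 to 396 in CDKO hESC, 288 to 322 in CTRL iMeLC and 304 to 356 in CDKO iMeLC; these counts do not single out the catalytic domain and do not check the genotype. The summed level of 6 pluripotency markers was 7050 to 8290 CPM in hESC and 4220 to 5440 in iMeLC. NANOG went against this sum, with medians of 141 and 186 CPM in CTRL hESC and iMeLC and 191 and 214 in CDKO. The other pluripotency markers had lower medians in iMeLC. The sum of 6 incipient mesoderm markers was 23.9 to 188 CPM in hESC and 336 to 1230 in iMeLC. Among iMeLC, the mesoderm sum was 336 to 1030 CPM in CTRL and 913 to 1230 in CDKO, 4 endoderm markers summed to 9.69 to 102 and 120 to 280, and 7 fibroblast or feeder markers to 513 to 1050 and 792 to 1080, with no marker of these lists at 0 in any group. SP5 went against the mesoderm sum, with medians of 199 CPM in CTRL and 161 in CDKO iMeLC. COL3A1 of the fibroblast list stood at 13.6 to 46.3 CPM in CTRL iMeLC and 79.9 to 166 in CDKO iMeLC. DCN and LUM were also higher in CDKO iMeLC without overlap, while COL1A1, COL1A2, POSTN and THY1 overlapped. Of all genes tested there, 26.5% did not overlap. The library CTRL1101 stood apart from the other CTRL iMeLC libraries: the chi-square per gene, a measure of the difference in counts, was 155 and 181 in its pairs with CTRL1106 and CTRL1109 and 97.1 between those 2. Pairs of CDKO iMeLC libraries, which were less deep, had 19.7, 28 and 29.7. CTRL1106 and CTRL1109 thus also differed more from each other than any CDKO iMeLC pair. Without CTRL1101, the genes called between genotypes in iMeLC went from 69 to 2646, which is 12.8% of those tested. The part of these markers in the results below was not tested. In bulk RNA, fewer cells of a type and less RNA per cell cannot be told apart.

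TRIM4 was present in both hESC groups and in CDKO iMeLC, and nearly without counts in CTRL iMeLC. The 3 CTRL hESC libraries held 127, 200 and 166 TRIM4 counts, or 6.98, 10.1 and 7.61 CPM. The CDKO hESC libraries held 120, 109 and 116 counts, or 8.67, 5.3 and 5.94 CPM. The hESC groups overlapped. CTRL iMeLC held 4, 2 and 4 counts in the lines CTRL1101, CTRL1106 and CTRL1109, or 0.0468, 0.0232 and 0.0391 CPM, although these were far deeper libraries. CDKO iMeLC held 301, 656 and 537 counts in CDKO1102, CDKO1105 and CDKO1312, or 6.7, 8.64 and 7.77 CPM. The lowest CDKO iMeLC library was thus above all 3 CTRL iMeLC libraries, and the CDKO iMeLC values lay within the range of the hESC values.

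**Figure D1:**
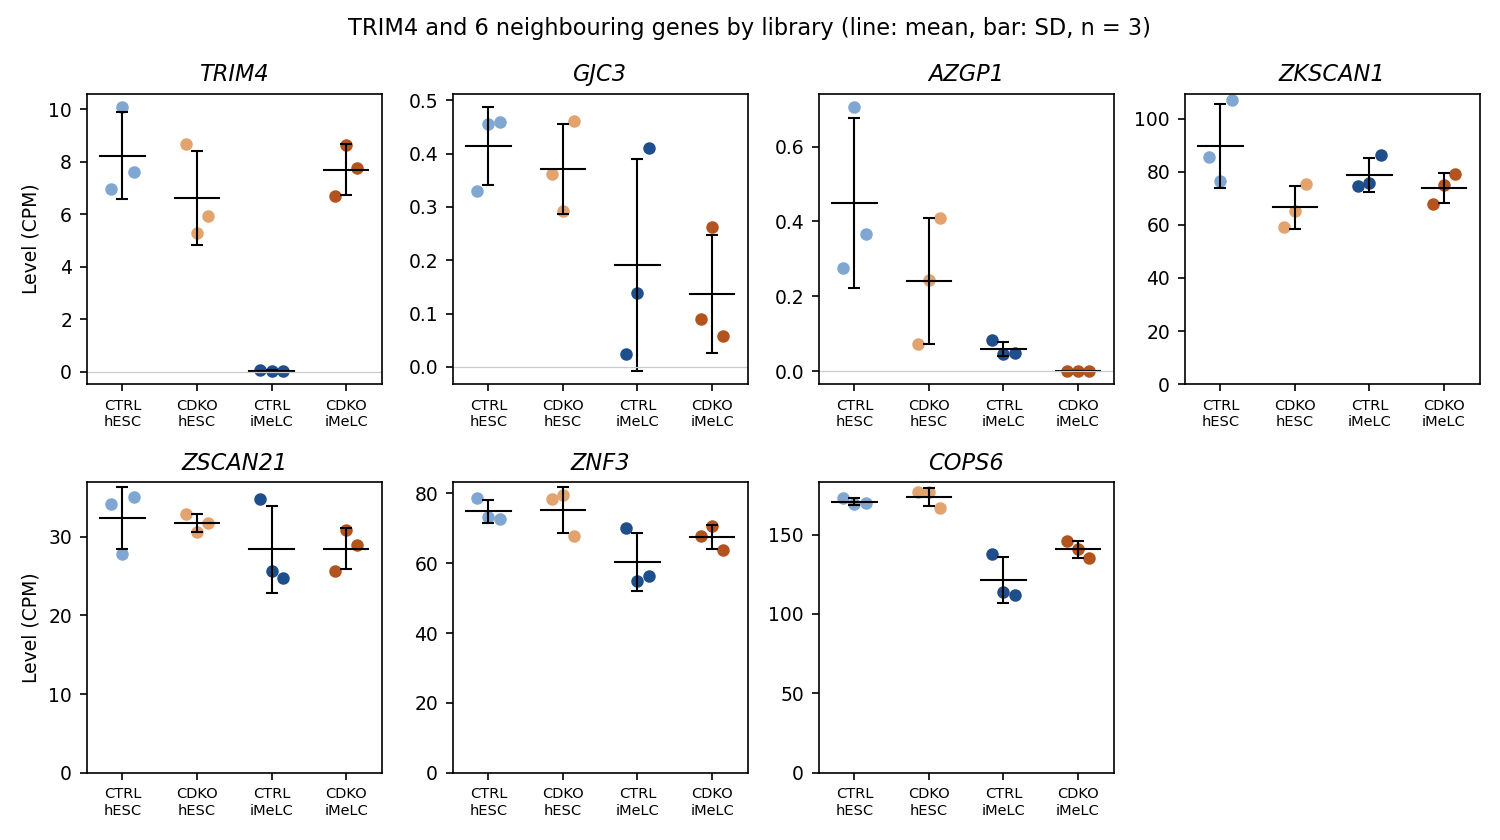
Level in CPM (linear axis from 0, scaled for each gene) of TRIM4 and its 6 neighbours in CTRL and CDKO hESC and iMeLC. Points are libraries, the long line is the mean and the bar the SD (n = 3). TRIM4 sits at 0.0232 to 0.0468 CPM in CTRL iMeLC and at 5.3 to 10.1 CPM in the other groups.

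Group means for TRIM4 were 8.23 ± 1.65 CPM in CTRL hESC, 6.64 ± 1.79 in CDKO hESC, 0.0364 ± 0.012 in CTRL iMeLC and 7.7 ± 0.969 in CDKO iMeLC (SD, n = 3 each). Exact 95% Poisson intervals on the pooled counts, which cover counting error only, were 7.53 to 9.01 CPM for the 493 counts of CTRL hESC and 5.74 to 7.11 for the 345 of CDKO hESC. They were 0.0175 to 0.0671 CPM for the 10 counts of CTRL iMeLC and 7.47 to 8.27 for the 1494 of CDKO iMeLC. In the hESC libraries, which were not used to choose TRIM4 but come from the same sets of lines, CDKO differed from CTRL by -0.31 on the log2 scale (SE 0.22, adjusted p = 0.517, edgeR quasi-likelihood test, Benjamini-Hochberg over 17222 genes). An interval of 2 SE to each side ran from -0.75 to 0.13, which holds both a fall of that size and no change. Of all genes tested, 1.31% passed an adjusted p of 0.05 in that comparison.

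As a description, the fitted TRIM4 difference between CDKO and CTRL iMeLC was 7.63 on the log2 scale (SE 0.33), or 198-fold. From hESC to iMeLC the fit gave -7.72 (SE 0.33) in CTRL and 0.22 (SE 0.22) in CDKO. The difference between these 2 stage changes was 7.94 (SE 0.40).

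OR2AE1, which overlaps TRIM4 on its strand, had 0 counts in all 6 CTRL libraries, 3 counts in 1 CDKO hESC library and 2 counts in each of 2 CDKO iMeLC libraries. These numbers are too low to compare. They show that few reads went to this overlapping gene in any group.

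Counting TRIM4 against its neighbours within each library needs no scaling between libraries. Per 1000 counts of the 6 neighbours together, TRIM4 had 18.8, 29.1 and 19.8 counts in CTRL hESC and 24.9, 15 and 17.3 in CDKO hESC. The 2 groups overlapped, and the mean log2 ratio differed by -0.24 (exact permutation p = 0.5, two-sided, 20 splits, where 0.1 is the smallest p possible). CTRL iMeLC had 0.148, 0.0859 and 0.14 TRIM4 counts per 1000, and CDKO iMeLC 21.8, 27.2 and 25.3. The low values of CTRL iMeLC were therefore seen against the neighbouring genes of the same libraries as well as against the library total.

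**Figure D2:**
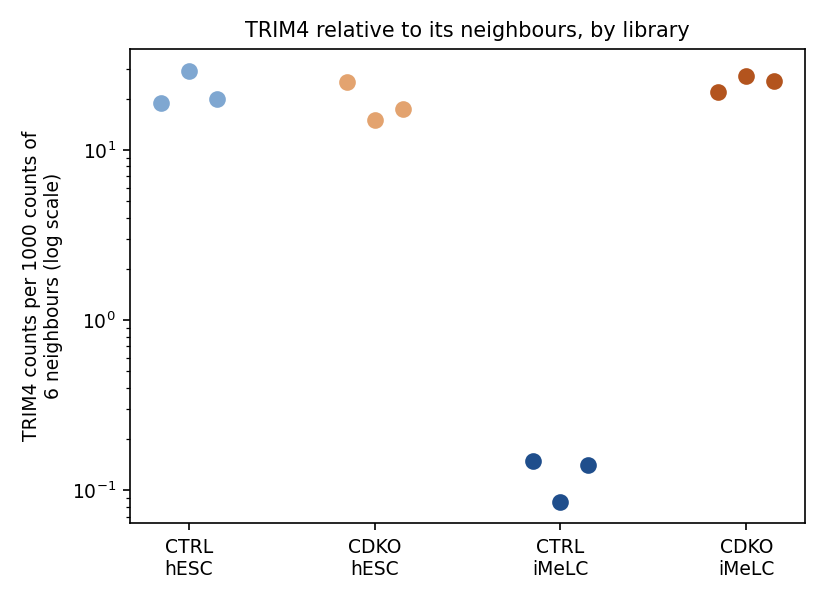
TRIM4 counts per 1000 counts of its 6 neighbours (log axis) in each library of the 4 groups, with each point 1 library. The CTRL iMeLC libraries lie at 0.0859 to 0.148 and the other 9 libraries at 15 to 29.1.

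Compared per length, with CPM divided by the kilobases of annotated exons, the order in CTRL hESC was COPS6 (60.7 CPM per kb), ZSCAN21 (15.1), ZNF3 (13.8), ZKSCAN1 (8.68), TRIM4 (1.68), GJC3 (0.371) and AZGP1 (0.167). ZSCAN21 and ZNF3 were close neighbours in this order, within the SD of ZSCAN21. In CDKO hESC the per-length level of TRIM4 was 1.36 CPM per kb, again below ZKSCAN1 (6.46) and above GJC3 (0.333). In CTRL iMeLC, TRIM4 was at 0.00744 CPM per kb, below AZGP1 (0.0219) and GJC3 (0.171), the lowest of the 7. In CDKO iMeLC it stood at 1.57 CPM per kb, between ZKSCAN1 (7.17) and GJC3 (0.123).

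None of the neighbours tested was called different between genotypes in either stage. In hESC, 4 of the 6 passed the filter on low counts and 0 of 4 were called by edgeR; 1 had an unadjusted p under 0.05, and DESeq2 called 0. That 1 was ZKSCAN1, a zinc finger gene also known as the source of an abundant circular RNA. Its CTRL hESC libraries stood at 85.4, 76.4 and 107 CPM and its CDKO hESC libraries at 59.3, 65.3 and 75.3. The groups did not overlap, which held for 22% of all genes tested, and the log2 difference was -0.42 (SE 0.13, adjusted p = 0.169, edgeR). With no filter on low counts its adjusted p was 0.00164. COPS6 (0.04, SE 0.07), ZNF3 (0.02, SE 0.08) and ZSCAN21 (-0.02, SE 0.11) had overlapping hESC groups and adjusted p of 0.83, 0.938 and 0.949 (edgeR).

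In iMeLC, 5 of the 6 neighbours were tested, and edgeR called 0, with 0 at an unadjusted p under 0.05 and 0 called by DESeq2. Of all genes, 0.345% passed the threshold there. COPS6 stood at 138 CPM in CTRL1101, at 114 in CTRL1106, at 112 in CTRL1109, and at 146, 141 and 135 CPM in the CDKO lines. The groups overlapped only through CTRL1101, and the log2 difference was 0.19 (SE 0.10, adjusted p = 0.328, edgeR); without CTRL1101 it was 0.29 with an adjusted p of 0.0451. ZNF3 differed by 0.13 (SE 0.11, adjusted p = 0.537; 0.25 without CTRL1101, adjusted p = 0.0934, edgeR). ZSCAN21 differed by -0.02 (SE 0.15, adjusted p = 0.94; 0.15 without CTRL1101, adjusted p = 0.388) and ZKSCAN1 by -0.12 (SE 0.10, adjusted p = 0.526), and the groups overlapped for each of these 3 genes. In this comparison, the libraries of 26.5% of all genes did not overlap between genotypes, and none of the 5 neighbours tested was among these. TRIM4 was among them, which follows from its choice by this comparison.

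GJC3 and AZGP1, the neighbours nearest to TRIM4, were at low counts throughout. GJC3 had 6, 9 and 10 counts in CTRL hESC, 5, 6 and 9 in CDKO hESC, 2, 12 and 42 in CTRL iMeLC and 4, 20 and 4 in CDKO iMeLC. The 42 counts of CTRL1109 set its CTRL iMeLC mean of 0.191 ± 0.199 CPM (SD, n = 3), and its iMeLC genotype difference of -0.51 (SE 1.0, adjusted p = 0.803, edgeR) became 0.74 without that library. AZGP1 had 5, 14 and 8 counts in CTRL hESC, 1, 5 and 8 in CDKO hESC, 7, 4 and 5 in CTRL iMeLC and 0 in each CDKO iMeLC library. Against a floor of 3 counts over the CDKO iMeLC group, which is 0.0158 CPM, the 16 pooled CTRL iMeLC counts of AZGP1 were 3.7-fold higher. That ratio leaves out the counting error of the 16 counts, so it is not a lower bound. AZGP1 did not pass the filter in either genotype comparison and has no test there. Its direction in iMeLC was opposite to that of TRIM4.

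Between stages, COPS6 and AZGP1 were lower in iMeLC than in hESC in both genotypes, and ZNF3 in CTRL. COPS6 had 173, 169 and 170 CPM in CTRL hESC against 112 to 138 in CTRL iMeLC, a log2 change of -0.49 (SE 0.08, adjusted p = 0.000289, edgeR over 12 libraries). In CDKO it had 177, 177 and 167 CPM in hESC against 135 to 146 in iMeLC, a change of -0.30 (SE 0.08, adjusted p = 0.00706, edgeR). AZGP1 changed by -2.88 in CTRL (SE 0.70, adjusted p = 0.0057), from 0.45 ± 0.228 to 0.0591 ± 0.0198 CPM (SD, n = 3, edgeR). Without the CTRL hESC library with 14 counts its adjusted p was 0.0554, and with no filter on low counts 0.0227 (edgeR). AZGP1 passed the filter of this fit through its hESC libraries, where it was higher, which favours a fall. Its stage p-values in both genotypes are therefore a description. In CDKO, the 14 pooled hESC counts of AZGP1 stood 16.4-fold above the same floor, and iMeLC held 0 counts (adjusted p = 0.000595, edgeR). That ratio again leaves out the counting error of the hESC counts. ZNF3 changed by -0.31 in CTRL (SE 0.10, adjusted p = 0.0233, edgeR), from 74.8 ± 3.35 to 60.4 ± 8.35 CPM (SD, n = 3). That call was lost with no filter on low counts (adjusted p = 0.0802) and without CTRL hESC library 1 (0.116), 2 (0.0569) or 3 (0.0701), all by edgeR.

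ZKSCAN1 and ZSCAN21 did not pass the threshold between stages in either genotype. ZKSCAN1 changed by -0.19 (SE 0.13) in CTRL and 0.15 (SE 0.13) in CDKO, and ZSCAN21 by -0.19 (SE 0.14) and -0.16 (SE 0.14). Without CTRL1101, ZSCAN21 changed by -0.41 in CTRL with an adjusted p of 0.0122 (edgeR). GJC3 changed by -1.09 (SE 0.80) in CTRL and -1.39 (SE 0.85) in CDKO, and without CTRL1109 its CTRL change was -2.36 with an adjusted p of 0.03 (edgeR). Like AZGP1, GJC3 passed the filter through its hESC libraries, where its mean was higher, which favours a fall. Its stage values and that p-value are therefore a description. The neighbours called were 3 of 6 in CTRL (50%) and 2 of 6 in CDKO (33.3%). Of all genes, 49.4% and 59.8% were called, so neither share stood above that of genes in general by as much as 1 gene. Both counts include AZGP1, for which the filter favoured a fall. Libraries of the 2 stages did not overlap for AZGP1, ZNF3 and COPS6 in CTRL, where this held for 54.9% of all genes, and for GJC3, AZGP1 and COPS6 in CDKO, where it held for 70.7%. The filter limit of GJC3 and AZGP1 applies to these statements as well.

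The stage change of the neighbours was not called different between genotypes. The largest fitted difference was that of AZGP1, at -3.72 (SE 1.36, adjusted p = 0.366, edgeR), which depends on 0 counts in CDKO iMeLC. For COPS6, ZNF3, ZSCAN21 and ZKSCAN1 it was 0.19 (SE 0.12), 0.15 (SE 0.14), 0.03 (SE 0.20) and 0.33 (SE 0.18). Of 6 neighbours edgeR called 0, with 1 at an unadjusted p under 0.05, and DESeq2 called 0. Of all 20262 genes tested, 0.0197% were called, which was 4 genes, against 439 (2.33%) without CTRL1101. Besides TRIM4, whose values in this comparison include those it was chosen by and carry no test, they were the humanin-like gene MTRNR2L12 (2.09), the cholesterol transporter gene ABCA1 (2.40) and the plakophilin gene PKP3 (-1.75), with the log2 difference in parentheses.

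A wider window of 500 kb to each side of TRIM4 held 48 other genes of the tables, the 6 neighbours included. Between genotypes, edgeR called 0 of the 32 tested in hESC, against 1.31% of all genes, with 4 at an unadjusted p under 0.05. DESeq2 called 1 there, against 3.59% of all genes. In iMeLC edgeR called 0 of 35, against 0.345% of all genes, with 6 at an unadjusted p under 0.05, and DESeq2 called 4, against 7.84%. Without CTRL1101 there were 5 calls among 36 tested in iMeLC, against 12.8% of all genes. With no filter there were 3 among 45 in hESC, against 3.62%. The log2 differences ran from -1.05 (STAG3, a meiotic cohesin subunit) to 0.63 (CYP3A5, a drug-metabolising cytochrome) in hESC. In iMeLC they ran from -1.37 (STAG3) to 0.83 (ARPC1B, a subunit of the actin-nucleating Arp2/3 complex), with medians of -0.14 in the window and -0.03 over all genes. TRIM4 stood at 7.63 in iMeLC, outside that range, which follows from its choice by this comparison and is a description only.

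**Figure D3:**
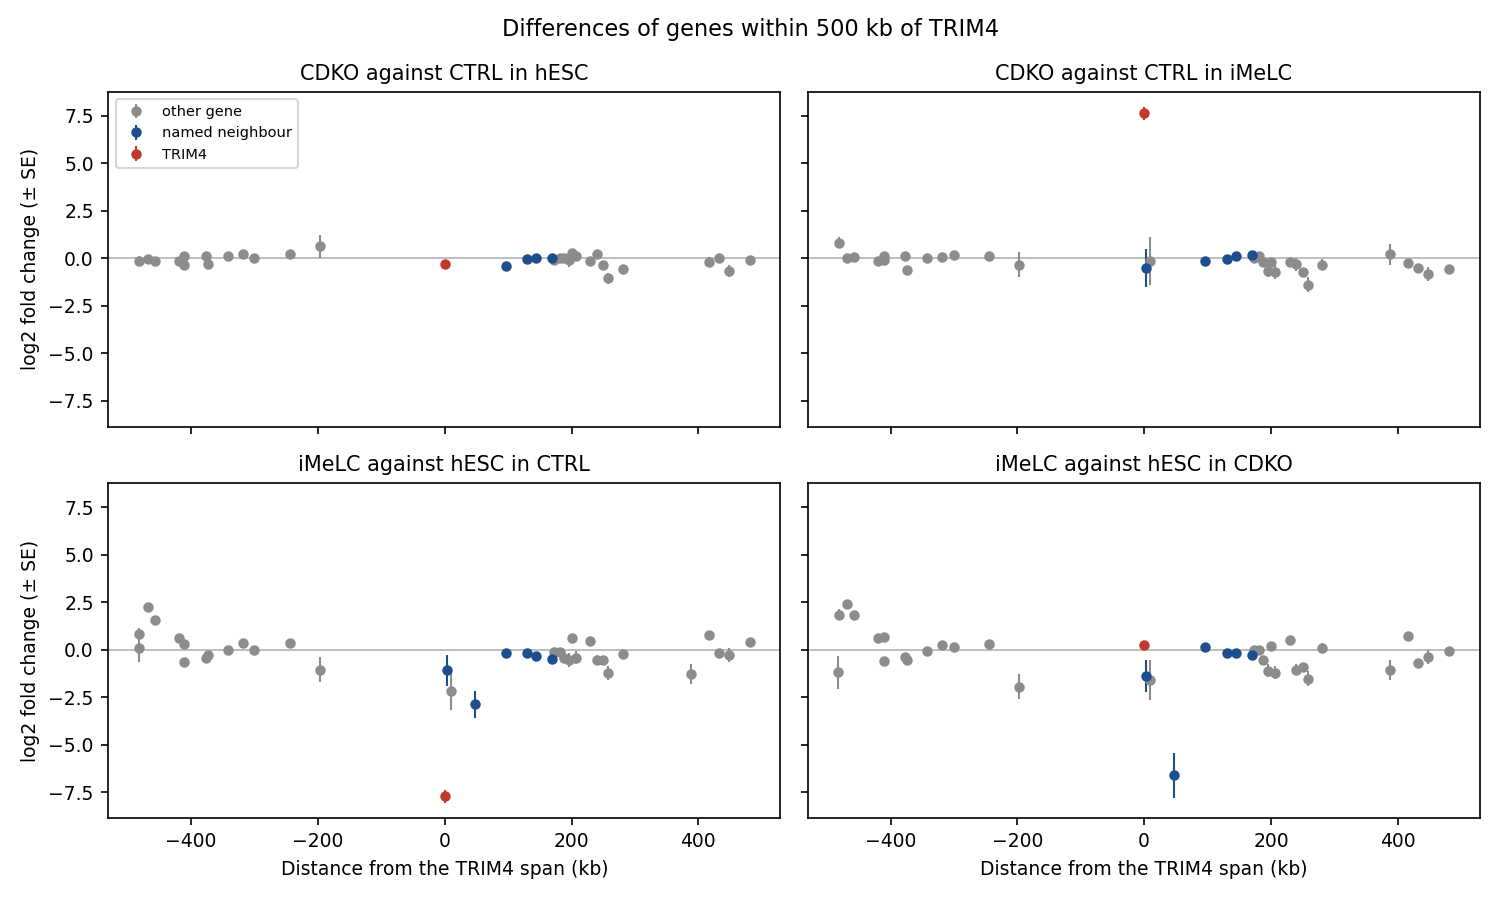
Fitted log2 fold change with its SE (vertical axis) against distance from TRIM4 in kb (0 is TRIM4, positive towards COPS6) for genes within 500 kb, in 4 comparisons. TRIM4 (red) lies at 7.63 in iMeLC between genotypes and at -7.72 between stages in CTRL; the low blue point in CDKO is AZGP1, whose CDKO iMeLC libraries held 0 counts, so its fitted value there is not a size.

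Between stages, 14 of 37 window genes were called in CTRL, 7 higher and 7 lower in iMeLC, and 20 of 37 in CDKO, 7 higher and 13 lower. These are 37.8% and 54.1% of the window genes, below the 49.4% and 59.8% of all genes. The calls of the 2 genotypes compare separate libraries but are not independent. They come from 1 fit with 1 shared spread, and stage goes with table and depth in both. In both lists were 12 genes (85.7% of the CTRL list and 60% of the CDKO list), all 12 in the same direction. Over all genes, 8873 were called in both genotypes (88.6% of the CTRL calls and 73.3% of the CDKO calls), 99.9% of them in the same direction, so the window's shares were not above the general ones. Those higher in both were the growth factor-associated protein gene PDAP1 (2.27 in CTRL and 2.39 in CDKO), the splicing factor gene BUD31 (1.54 and 1.81), ARPC1B (0.85 and 1.84), the readthrough gene STAG3L5P-PVRIG2P-PILRB (0.76 and 0.72), the polyadenylation factor gene CPSF4 (0.59 and 0.59) and LAMTOR4 of the lysosomal Ragulator complex (0.47 and 0.49). Those lower in both were AZGP1, COPS6, STAG3 (-1.25 and -1.53), PTCD1 (-0.63 and -0.60), the TFIID subunit gene TAF6 (-0.44 and -0.56) and ZNF394 (-0.42 and -0.39). The filter limit given above for AZGP1 applies here too. It also applies to CYP3A5, called in CDKO alone, which passed the filter through its hESC libraries. CYP3A5 means in CDKO were 0.454 ± 0.214 CPM in hESC and 0.118 ± 0.0498 in iMeLC (SD, n = 3). Both genes are counted among the lower calls above as a description. CNPY4 (0.60) and ZNF3 were called in CTRL alone. In CDKO alone, ATP5MF was higher (0.65), and CYP3A5 (-1.94), MBLAC1 (-1.21), AC073842.2 (-1.10), GAL3ST4 (-1.06), GPC2 (-0.89), PILRB (-0.68) and ZNF789 (-0.56) were lower. Whether the genotypes differ for these was tested in the same model, and edgeR called 0 of 37, with 3 at an unadjusted p under 0.05 and 0 called by DESeq2. Of the 22 genes called in either genotype, 16 share exon bases with another gene of the tables, so their counts are uncertain.

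The other TRIM family genes, RING-type ligases and relatives, were taken as 74 further symbols of the tables. In iMeLC, edgeR called 0 of 45 tested between genotypes, against 0.345% of all genes, with 9 at an unadjusted p under 0.05. DESeq2 called 3, against 7.84% of all genes, and the median edgeR log2 difference was -0.08. Without CTRL1101 edgeR called 4 of 45, against 12.8% of all genes, and in the fit over 12 libraries 3 of 46, against 6.47%. The smallest adjusted p was that of the neuronal ligase gene TRIM9 (-1.26, SE 0.27, adjusted p = 0.107). In hESC, 1 of 43 was called (2.33%, against 1.31% of all genes), TRIM39, at 31.3 ± 0.468 CPM in CTRL and 41.5 ± 0.98 in CDKO (SD, n = 3; 0.42, SE 0.08, adjusted p = 0.0348, edgeR). Its call was lost in 5 of 10 alternatives: the fit over 12 libraries (adjusted p = 0.131) and without CTRL hESC library 1 (0.11) or CDKO hESC library 1 (0.173), 2 (0.168) or 3 (0.0978). Between stages, 28 of 46 were called in CTRL (12 higher, 16 lower) and 32 of 46 in CDKO (12 higher, 20 lower). These are 60.9% and 69.6%, beside 49.4% and 59.8% of all genes, and the family was not tested against other genes. TRIM71, a stem cell regulator of mRNA, fell by 1.05 on the log2 scale in both, from 1550 ± 44.8 to 750 ± 112 CPM in CTRL and from 1470 ± 211 to 712 ± 49.6 in CDKO (SD, n = 3). In CTRL the others with the smallest adjusted p were TRIM36 (1.58), TRIM37 (0.62) and TRIM27 (0.73), and in CDKO TRIM14 (-0.95), TRIM56 (-0.88) and TRIM6 (-1.45). For the difference of stage changes edgeR called 0 of 46, with 5 at an unadjusted p under 0.05 and 0 called by DESeq2. It called 2 of 47 without CTRL1101, against 2.33% of all genes.

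The RIG-I pathway, in which TRIM4 is known to act, was followed in a list of 24 genes (sensors, adaptors, kinases, transcription factors and interferon-induced genes). The list also held DNA sensing genes such as CGAS, which are not part of the RIG-I pathway itself. In iMeLC, 1 of 23 tested was called between genotypes, CGAS, the DNA sensor that makes cyclic GMP-AMP, at 10.4 ± 1.83 CPM in CTRL and 0.16 ± 0.123 in CDKO (SD, n = 3). That is 4.35% of the list, against 0.345% of all genes, and it rests on CGAS alone. The list was chosen with earlier results of these data known, so its shares of calls are given as a description. Without CTRL1101 there were 4 calls of 23, CGAS among them, against 12.8% of all genes. In the fit over 12 libraries there were 2, against 6.47% of all genes. The log2 difference of CGAS was -5.95 (SE 0.49, adjusted p = 0.00415, edgeR), opposite in direction to TRIM4. CGAS passed the filter of that fit through its CTRL libraries, where it was higher, so its p-value is a description too. In hESC, 1 of 21 was called (4.76%, against 1.31% of all genes), the interferon-induced gene IFIT3, at 0.538 ± 0.0745 CPM in CTRL and 2.02 ± 0.138 in CDKO (SD, n = 3; 1.92, SE 0.30, adjusted p = 0.0185, edgeR). That call was lost in the fit over 12 libraries (adjusted p = 0.144) and without CTRL hESC library 1 (0.0572) or CDKO hESC library 1 (0.0735), 2 (0.112) or 3 (0.0834). Between stages, 9 of 23 were called in CTRL (5 higher, 4 lower) and 16 of 23 in CDKO (8 higher, 8 lower). These are 39.1% and 69.6%, beside 49.4% and 59.8% of all genes. The kinase gene TBK1 rose in both (1.44 in CTRL and 1.58 in CDKO), as did NFKB1 (1.95 and 2.82). The adaptor gene MAVS fell by 0.47 in CTRL, and CGAS fell by 3.44 in CDKO. For the difference of stage changes edgeR called 0 of 23, with 4 at an unadjusted p under 0.05. It called 2 of 23 without CTRL1101, against 2.33% of all genes, and DESeq2 called 2, against 1.04%.

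Genes with a pattern most like that of TRIM4 were ranked by Pearson's r of log2 levels over the 12 libraries, among 15097 genes with a mean of at least 1 CPM. These are descriptions over libraries that share their group, depth and stage. The TRIM4 pattern is mostly its low level in CTRL iMeLC, part of the comparison by which it was chosen. A value of r, also for a neighbour, thus mainly reflects whether a gene differed in CTRL iMeLC. MAGED1, GTPBP10, WDR82, SEPT8 and ZNF761 came first with r of 0.90 to 0.91, and 6 genes in all reached 0.9. Their spans were far smaller than that of TRIM4: MAGED1 had group means of 141, 138, 109 and 150 CPM, and ZNF761 78.2, 87.2, 62.1 and 83.7, with CTRL before CDKO and hESC before iMeLC. The most opposite patterns were those of PLAAT5, ADAMTS20, PCNX2, NCOA7 and ADGRE5, at r of -0.93 to -0.90. PLAAT5 had means of 15.7, 14.9, 32.9 and 16.5 CPM in that order, and ADGRE5 1.87, 1.08, 6.35 and 0.905. Among the neighbours, r with TRIM4 was 0.78 for COPS6, 0.70 for ZNF3, 0.34 for ZSCAN21 and -0.10 for ZKSCAN1.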

How the data were processed

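RNA of 12 UCLA1 libraries was sequenced from SMARTer Stranded Total RNA libraries made from sorted cells or pellets, per the labels' protocols. The authors deposited raw counts per gene symbol in 2 tables, 1 for each stage. FastQC, cutadapt, edgeR and GRCh38 are named per the submitters' processing notes; the sources used here do not give the aligner, counter, annotation or strand setting. Total counts per library ran from 12517593 to 109479071.

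Counts were tested with edgeR 4.0.16 in R 4.3.3 (TMM scaling, filterByExpr, quasi-likelihood test, Benjamini-Hochberg over all genes tested, threshold 0.05). Genotypes were compared in fits of 6 libraries, and stages and their difference between genotypes in 1 fit of 12. The SE is the log2 fold change divided by the square root of F. TRIM4 relative to its neighbours was tested by exact permutation, after adding 2 counts. The fits were run on simulated counts with the same spread for every gene and changes in well counted genes only. The libraries here were less even and some members had low counts, so that run checks the code and not the calls. The labels name lines, and nothing says that libraries of a line are separate cultures, so p-values measure the spread between these samples. Replicate libraries differed beyond counting error, and none was counted as a duplicate. The genes named outside the 7 members follow a rule. Named were each called gene in the window and 5 genes at each end of the likeness ranking. From the TRIM family and the RIG-I list, up to 4 genes each with the smallest adjusted p were named. The members, lists and rules were chosen with earlier results of these data known. Alternatives were RLE scaling, no filter, DESeq2 1.42.0, a fit over 12 libraries and leaving out each library; for the ratio, 0.5 added counts and the 4 well counted neighbours alone.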

Additional observations from a re-analysis of the deposited data

Results flagged for a closer look

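The TRIM4 difference between CDKO and CTRL was not the same in the 2 stages: the difference of the differences was 7.94 on the log2 scale (SE 0.40). TRIM4 was chosen by the iMeLC part of that value, so it is a description of why the gene was taken up and carries no test here. In the 15 alternatives run, it lay between 7.70 and 8.19.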

How the results depend on the processing

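The TRIM4 values kept their direction in the alternatives run, and the hESC difference stayed above the threshold: -0.55 to -0.14 between genotypes in hESC (adjusted p of 0.39 to 0.834, edgeR or DESeq2), 7.41 to 7.82 in iMeLC, -7.94 to -7.54 between stages in CTRL and 0.06 to 0.48 in CDKO. TRIM4 relative to its neighbours in hESC ran from -0.45 to -0.04 (exact permutation p of 0.2 to 1). Counts of called genes moved more, and the cause was not tested. Genotype calls in hESC were 226, against 1228 with no filter, 618 by DESeq2, 72 in the fit over 12 libraries and 5 to 493 leaving out 1 library. In iMeLC they were 69, against 428 with no filter, 1566 by DESeq2, 1310 in the fit over 12 libraries and 15 to 2646 leaving out 1 library, the highest without CTRL1101. Calls for the difference of stage changes were 4, against 29 with no filter, 210 by DESeq2 and 1 to 439 leaving out 1 library. Stage calls stayed within 8527 to 10494 in CTRL and 10817 to 12558 in CDKO. Neighbour values near 0 changed sign. In hESC, ZNF3 was -0.0015 with no filter and -0.03 to 0.09 leaving out 1 library, and ZSCAN21 -0.12 to 0.05. In iMeLC, ZSCAN21 was 0.0057 in the fit over 12 libraries and -0.10 to 0.15 leaving out 1 library, and GJC3 -1.42 to 0.74. For the difference of stage changes, leaving out 1 library gave -1.26 to 0.91 for GJC3 and -0.08 to 0.18 for ZSCAN21. No paired analysis was possible because the hESC columns carry no line name. GJC3 and AZGP1, with 0 to 42 counts per library, are limited by depth.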
